A study of Mus musculus with 10 samples.

Results

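Elastic fibres and the microfibrils that carry them were followed through 10 genes in bulk RNA sequencing of the mouse left ventricle (LV), taken by gene name (Eln, Fbn1, Fbn2, Fbln1, Fbln2, Fbln5, Mfap2, Mfap4, Mfap5 and Emilin1) from the 55401 genes listed in each library. The genes share a role in the fibre, and no measured value enters the rule, but the set was drawn up with earlier results of these data known. The LV samples came from wild-type mice aged 4 weeks, in 2 groups of 5. Mice of the nAAC group had neonatal ascending aorta constriction, a narrowing placed around the ascending aorta soon after birth that loads the LV with pressure, and mice of the sham group had sham surgery. The labels name no other allele or agent in either group. The constriction was placed while the heart was still growing, and all neonates stayed with their mothers and were breast fed. The labels give each library as 1 LV sample and do not say whether 2 libraries share a litter, so the p-values measure the spread between these samples. The comparison asks how the transcripts of the elastic matrix differ between a pressure-overloaded young LV and that of sham-operated mice.

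Elastic fibres are the part of the extracellular matrix that stretches and recoils. Tropoelastin, the soluble product of Eln, is gathered by fibulins, laid onto bundles of fibrillin called microfibrils, and cross-linked into an insoluble core by lysyl oxidases. Microfibrils also hold latent TGF-beta through its binding proteins, and elastin-rich layers are best known in the heart from the great arteries, the coronary vessels, the valves and the endocardium.

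Of the 10 genes, 6 were up-regulated in the LV samples of nAAC mice, and 0 were down-regulated. These were Eln, which encodes the elastic core, Fbn1, the main fibrillin of postnatal tissue, Fbln2, a fibulin that binds both elastin and fibrillin, Mfap4 and Mfap5, glycoproteins of the fibre surface and of the microfibril, and Emilin1, a glycoprotein of the elastin and microfibril interface. As ratios of group means, Mfap4 was 7.86-fold and Mfap5 6.10-fold higher in nAAC, and the other four were 2.95-fold to 3.38-fold higher. The other fibulins and microfibril glycoproteins tested, Fbln1, Fbln5 and Mfap2, were not called, and Fbn2, the fibrillin of developing tissue, was below the filter on low values. A gene was called a differentially expressed gene (DEG) at an adjusted p under 0.05 and a log2 FC above 1 or below -1, by limma on log2(FPKM + 1) with Benjamini-Hochberg adjustment over the 11867 genes that averaged 1 FPKM or more across the libraries. FPKM relates the fragments of a gene to its transcript length and to the mapped total of the library, so levels can be set side by side between genes. All 9 tested members had a mean FPKM of at least 1 in both groups, so none was tested because of its level in 1 group alone.

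The count of members called stands against a large background. Across all genes tested, 5.01% were up-regulated DEGs and 0.893% were down-regulated DEGs. Fbln5 also passed the adjusted p without the fold, which made 7 members higher at an adjusted p under 0.05 alone, against 27.1% of all genes. Every nAAC library lay above every sham library for 6 members, against 18.9% of all genes. The median log2 FC of the 9 tested members was 1.51, and that of all genes tested was 0.22. The deposited scale therefore carried a general shift of 0.22 toward nAAC, and the values relative to that shift were 2.60 for Mfap4, 2.27 for Mfap5, 1.41 for Eln, 1.34 for Emilin1, 1.29 for Fbln2 and 1.22 for Fbn1. By rank of log2 FC among all genes tested, Mfap4 was 30th, Mfap5 47th, Eln 159th, Emilin1 184th, Fbln2 202nd and Fbn1 246th.

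**Figure D1:**
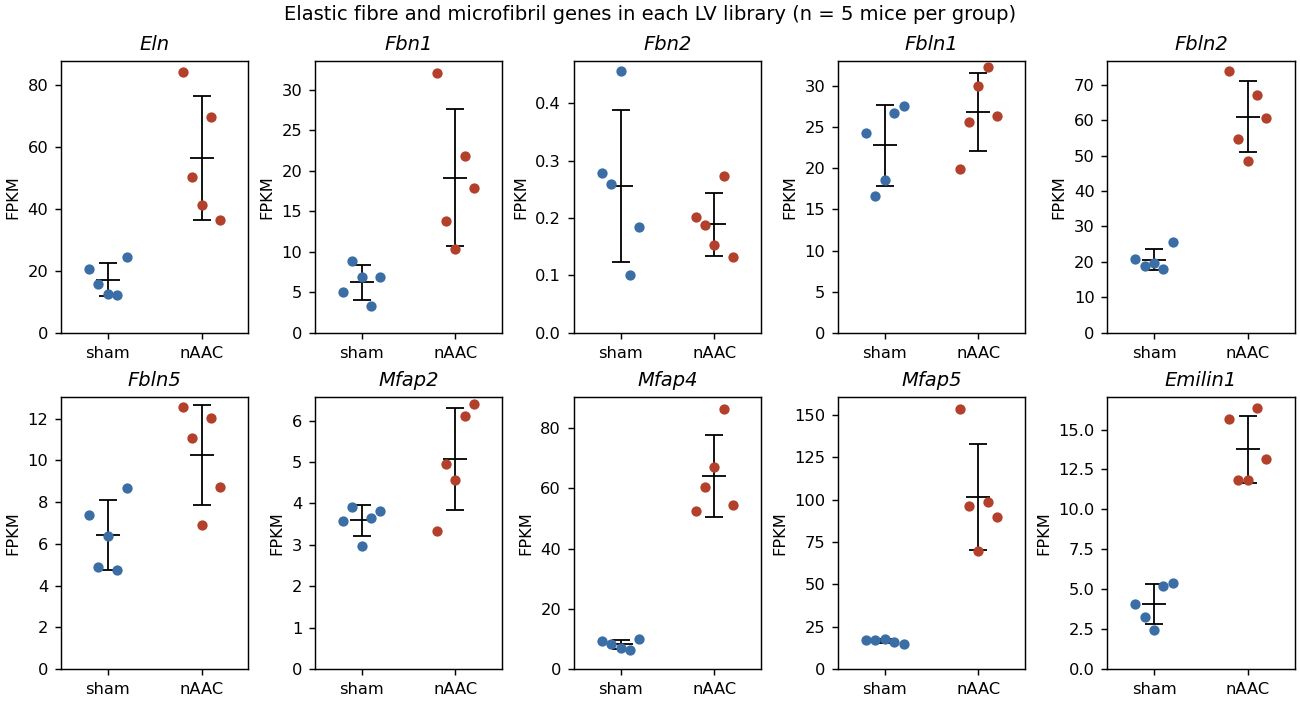
FPKM of the 10 genes in each LV library, with sham in blue and nAAC in red; each point is 1 mouse, the horizontal bar is the group mean and the whiskers are 1 SD (n = 5 per group). Points of the 2 groups do not overlap for Eln, Fbn1, Fbln2, Mfap4, Mfap5 and Emilin1, and they overlap for Fbn2, Fbln1, Fbln5 and Mfap2.

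Facts of the libraries bear on these values. The libraries held an estimated 4.86 to 6.82 gigabases of aligned sequence. The number of genes that reached an FPKM of 1 was 11889 to 12455 in nAAC and 11182 to 11721 in sham libraries, with no overlap. Transcripts of the mitochondrial genome took 32.8% to 39.9% of TPM in nAAC and 33.7% to 49.8% in sham libraries, and the sham libraries 1 to 3 were above every nAAC library. These values move with the groups on a scale that divides by the library total, and their part in the results was not tested apart from the other scalings of the libraries. In a principal component analysis the first component, 54.7% of the variance, separated the groups, and the second, 20.0%, set sham library 4 apart from the rest. Sham library 4 was the lowest sham library for 6 of the 10 genes, sham library 5 was the highest for 6, and nAAC library 1, the deepest, was the highest nAAC library for 5. Without sham library 4 the log2 FC was 1.54 for Eln, 1.27 for Fbn1, 1.47 for Fbln2, 2.75 for Mfap4, 2.48 for Mfap5 and 1.65 for Emilin1. Without nAAC library 1 it was 1.48, 1.24, 1.44, 2.89, 2.33 and 1.52 in the same order, and all 6 stayed DEGs in both cases.

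Eln lies on the minus strand of chromosome 5 (GRCm38, chr5:134702593-134747323), and its product is the bulk of the mature fibre. In the nAAC libraries 1 to 5 its FPKM was 84.2, 50.3, 41.3, 69.7 and 36.6. In the sham libraries 1 to 5 it was 20.6, 15.9, 12.6, 12.4 and 24.6. The lowest nAAC library lay above the highest sham library, although the nAAC libraries differed among themselves by more than the sham libraries did. The means were 56.4 ± 20.0 and 17.2 ± 5.30 FPKM (SD, n = 5 each). This was a log2 FC of 1.64 (SE 0.25, 95% confidence interval 1.10 to 2.17, limma adjusted p = 2.91e-04).

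Fibrillins form the backbone of the microfibril. Fbn1 (chr2:125300594-125507993, minus strand) had an FPKM of 32.1, 13.7, 10.3, 21.8 and 17.8 in the nAAC libraries and 5.04, 8.88, 6.93, 3.33 and 6.88 in the sham libraries. The groups did not overlap, but the gap between the lowest nAAC and the highest sham library was small beside the spread within the nAAC group. On the log2 scale the FC was 1.44 (SE 0.28, 95% confidence interval 0.84 to 2.04, limma adjusted p = 0.00176), from 6.21 ± 2.11 to 19.2 ± 8.42 FPKM (SD, n = 5 each).

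Fbn2 (chromosome 18) was listed at 0.10 to 0.46 FPKM in sham and at 0.13 to 0.27 FPKM in nAAC libraries. The groups overlapped, and the exact permutation test of log2(FPKM + 1) gave p = 0.357 (2-sided, n = 5 each). At a level this close to 0 a difference was not detectable. The fibrillin transcripts of both groups were therefore almost wholly Fbn1 by FPKM.

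The fibulins, calcium-binding glycoproteins that tie tropoelastin to microfibrils and basement membranes, differed in how far they moved. Fbln2 (chr6:91212455-91272540) had an FPKM of 73.8, 54.8, 48.5, 67.2 and 60.5 in the nAAC libraries and 20.9, 18.9, 19.6, 18.1 and 25.6 in the sham libraries, so that all nAAC values were above all sham values. Its log2 FC was 1.51 (SE 0.14, 95% confidence interval 1.21 to 1.82, limma adjusted p = 6.45e-06).

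Fbln5, the fibulin that brings tropoelastin to cells and microfibrils (chr12:101746565-101819055, minus strand), had an FPKM of 12.6, 11.1, 6.90, 12.0 and 8.75 in nAAC and 7.40, 4.89, 6.39, 4.75 and 8.68 in sham libraries. nAAC library 3 fell inside the sham range. Its log2 FC was 0.60 (SE 0.18, 95% confidence interval 0.20 to 0.999, limma adjusted p = 0.0244), below the fold threshold. The adjusted p rested on single libraries and on the scaling, since it was 0.0562 without nAAC library 1, 0.0542 without nAAC library 2, 0.0648 without nAAC library 4 and 0.0589 without sham library 2, and 0.168 under median-ratio scaling.

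Fbln1 (chr15:85205949-85286535), a fibulin of elastic fibres and basement membranes, had an FPKM of 19.9, 25.6, 30.0, 32.2 and 26.3 in nAAC and 24.3, 16.7, 18.5, 26.7 and 27.6 in sham libraries. The groups overlapped over most of their range. The log2 FC was 0.24 (95% confidence interval -0.13 to 0.60, limma adjusted p = 0.303), almost the same as the median shift of all genes, and its sign turned to -0.03 under median-ratio scaling of the libraries. The whole interval lay below the fold threshold.

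Mfap2 and Mfap5 encode the paired microfibril-associated glycoproteins, which both bind fibrillin. Mfap5 (chr6:122505845-122529290) had an FPKM of 154, 96.2, 69.6, 98.6 and 89.6 in nAAC libraries and 17.1, 17.3, 17.7, 16.1 and 15.0 in sham libraries. The sham libraries lay within a narrow band, while the nAAC libraries were spread, with library 1 far above the others. This gave a log2 FC of 2.49 (SE 0.18, 95% confidence interval 2.11 to 2.87, limma adjusted p = 6.20e-07).

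Mfap2 (chr4:141010418-141015984) had an FPKM of 3.34, 4.96, 4.55, 6.11 and 6.40 in nAAC libraries and 3.57, 3.92, 2.98, 3.66 and 3.82 in sham libraries. All nAAC libraries but the first were above every sham library. The log2 FC was 0.38 (SE 0.14, 95% confidence interval 0.07 to 0.69, limma adjusted p = 0.0593), and the adjusted p was 0.0113 without nAAC library 1. With the trend on GC content and transcript length removed, the log2 FC of Mfap2 was -0.00025.

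Mfap4 and Emilin1 encode glycoproteins found along the fibre. Mfap4 (chr11:61485431-61488900), a fibrinogen-domain protein that binds tropoelastin and fibrillin, had an FPKM of 52.6, 60.6, 67.2, 86.4 and 54.5 in nAAC libraries and 9.25, 8.30, 6.81, 6.44 and 10.1 in sham libraries. Its lowest nAAC library stood at 52.6 FPKM against 10.1 FPKM in its highest sham library. The log2 FC was 2.82 (SE 0.16, 95% confidence interval 2.48 to 3.17, limma adjusted p = 1.31e-07). Its locus overlaps Mapk7 on the other strand, whose own level was at most 3.59 FPKM in any library.

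Emilin1 (chr5:30913402-30921277) had an FPKM of 15.6, 11.9, 11.9, 16.3 and 13.1 in nAAC libraries and 4.09, 3.27, 2.43, 5.19 and 5.38 in sham libraries. The groups were well apart. The log2 FC was 1.57 (SE 0.17, 95% confidence interval 1.19 to 1.94, limma adjusted p = 2.44e-05).

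Sequences around the RefSeq start sites of the members were read from RefSeq (GRCm38.p6), since the study examines the aryl hydrocarbon receptor (AHR), whose core element is GCGTG. Entries were at hand for 6 members, with 9 promoters in all, each running from 250 bases before to 50 after a start. In the windows of Fbn1, Fbln2 and Emilin1, all 250 bases before the start lie within annotated exons of the gene in GENCODE M21. The 2 windows of Fbln1 overlap and share their matches. The AHR core, on either strand, was present in 5 of 9 promoters, those of 4 of 6 genes (Emilin1, Fbln1, Fbln5 and Mfap2), against 32.4% of 32851 promoters, and it was not among the letters of the Fbn1 and Fbln2 windows. The SMAD core CAGAC was in 6 of 9, of the same 4 genes, against 49.6%, the TEAD element CATTCC in 1, of Mfap2, against 14.7%, the AP-1 element TGANTCA in 0 against 7.81%, the TATA element TATAAA in 0 against 13.6% and the CArG box in 0 against 1.63%. The TATA element can lie within a CArG box, and no other pair of these motifs contains one another. Shown are the promoter with the most AHR cores, of Fbln5 (chr12:101819120-101819369, minus strand), and the one with the TEAD element, of Mfap2 (chr4:141010174-141010417, plus strand). Neither gene was a DEG. The RefSeq start of this Fbln5 promoter, chr12:101819119, lies upstream of the GENCODE gene, which begins at 101819055 on the minus strand. A match, or the lack of one, only describes these letters. Each runs 5′ to 3′ toward the start and lies outside the annotated exons of its gene. Capitals mark the 4 AHR cores, read as CACGC from the other strand, in Fbln5 and the TEAD element, read as GGAATG, in Mfap2.
Fbln5: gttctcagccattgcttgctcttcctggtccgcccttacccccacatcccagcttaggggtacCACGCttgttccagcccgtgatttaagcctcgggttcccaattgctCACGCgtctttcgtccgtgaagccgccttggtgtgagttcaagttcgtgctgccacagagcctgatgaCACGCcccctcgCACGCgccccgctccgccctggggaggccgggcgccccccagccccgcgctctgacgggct
Mfap2: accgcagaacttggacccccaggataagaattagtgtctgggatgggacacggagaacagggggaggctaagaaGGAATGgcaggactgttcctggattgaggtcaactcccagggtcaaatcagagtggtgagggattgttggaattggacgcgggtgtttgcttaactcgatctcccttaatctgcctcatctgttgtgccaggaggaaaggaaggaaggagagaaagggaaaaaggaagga

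**Figure D2:**
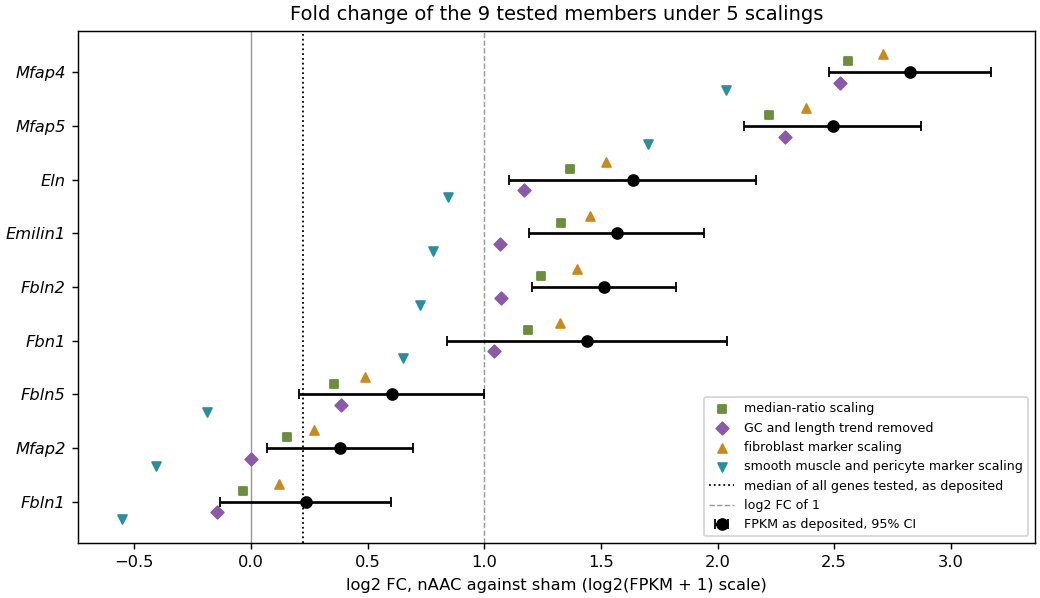
log2 FC of nAAC against sham on the log2(FPKM + 1) scale for the 9 tested genes; black points are the deposited FPKM with 95% confidence intervals, coloured points are 4 other scalings without intervals, the dotted line is the median of all genes tested (0.22) and the dashed line a log2 FC of 1. Mfap4 and Mfap5 are right of 1 under all 5 scalings, whereas Eln, Emilin1, Fbln2 and Fbn1 are left of 1 when scaled to smooth muscle and pericyte markers.

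Markers of the cells that make elastic fibres were read in the same libraries, because in bulk tissue fewer cells of a type and less RNA per cell cannot be told apart. Of 8 smooth muscle and pericyte markers, 3 were up-regulated DEGs (Myh11, Tagln and Cnn1, genes of the contractile smooth muscle apparatus, the last of which reached a mean FPKM of 1 only in nAAC) and 6 were higher at an adjusted p under 0.05 alone, against 5.01% and 27.1% of all genes tested. Their summed FPKM was 274 to 404 in nAAC and 182 to 289 in sham libraries. The largest part of that sum was Rgs5, at 120 to 200 in nAAC and 107 to 208 in sham libraries. None of the 8 markers was at 0 in any library, and their mean log2 value was higher by 0.79 in nAAC. Acta2, Notch3 and Pdgfrb passed the adjusted p but not the fold, at log2 FC of 0.85, 0.81 and 0.69. Rgs5 and Kcnj8, which mark pericytes, had log2 FC of -0.0024 and -0.0026. Of 7 fibroblast markers 0 were up-regulated DEGs and 1, Scara5, was a down-regulated DEG at a log2 FC of -1.80. At an adjusted p alone 2 were higher, Tcf21 at a log2 FC of 0.84 (limma adjusted p = 4.28e-04), with no overlap between groups, and Abca8a at 0.79 (limma adjusted p = 0.0145). The summed FPKM of the 7 markers was 473 to 715 in nAAC and 308 to 581 in sham libraries. Most of that sum was Gsn, at 410 to 636 in nAAC and 258 to 519 in sham libraries. The median log2 FC of the 7 markers was 0.43, and their mean log2 value was higher by 0.11, or by 0.43 with Scara5 left out.

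Scaling to a marker list takes the list's mean difference off the log2 FC of every gene alike. With the fibroblast markers all 6 genes were still DEGs, at a log2 FC of 1.52 for Eln, 1.33 for Fbn1, 1.40 for Fbln2, 2.71 for Mfap4, 2.38 for Mfap5 and 1.45 for Emilin1. With Scara5 left out of those markers, an alternative chosen after seeing the data, the 6 genes were again DEGs, at 1.20, 1.01, 1.08, 2.39, 2.06 and 1.14 in the same order, so that Fbn1 stood at the fold threshold. With the smooth muscle and pericyte markers, also chosen after seeing the data, which took off 0.79, Mfap4 at 2.03 and Mfap5 at 1.70 stayed DEGs. Under that scaling Eln was at 0.85, Emilin1 at 0.78, Fbln2 at 0.72 and Fbn1 at 0.65, still in the same direction and with an adjusted p of at most 0.0424 but below the fold threshold, and the median of all genes tested was -0.57. The part of smooth muscle cells in the result was not tested. Of 8 cardiomyocyte markers, which summed to 11550 to 28285 FPKM in every library, 0 were DEGs, while at an adjusted p alone Pln (log2 FC -0.86) and Tnni3 (-0.82) were lower and Actn2 (0.67) was higher, each with no overlap between groups. There were 0 DEGs among 8 endothelial and 5 tested epicardial and mesothelial markers, and 1 of 7 tested macrophage and leukocyte markers was an up-regulated DEG. Markers of other neighbours of the LV also varied between libraries. The summed FPKM of 3 atrial markers was 2.03 to 227 in nAAC and 3.05 to 44.7 in sham libraries, with Sln at 0 in 1 library. That of 4 valve markers was 13.6 to 35.1 and 13.6 to 20.8, with Wif1 at 0 in 1 library. The valve markers were split. Prg4 was an up-regulated DEG (log2 FC 1.80), and Wif1, which averaged 1 FPKM only in sham, was lower at an adjusted p alone (log2 FC -0.82). Cytl1 at -0.25 and Chad at 0.72 did not pass the adjusted p. With the atrial marker Myl7 as a covariate, added after seeing the data, the 6 genes stayed DEGs, and the part of valve tissue was not tested.

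Because the members moved by unequal amounts, the make-up of the elastic matrix transcripts differed between groups. The summed FPKM of the 10 genes was 358 ± 67.5 in nAAC, with a range of 290 to 448, and 106 ± 14.1 in sham, with a range of 94.5 to 128 (SD, n = 5 each). Mfap5 made up 28.0% of that sum in nAAC and 16.0% in sham, and Mfap4 18.3% and 7.68%. Fbln1 made up 7.75% and 21.5%. Eln held a similar share in both groups, 15.4% and 16.0%, as did Emilin1 with 3.87% and 3.82%. In sham libraries the order by mean FPKM was Fbln1, Fbln2, Eln, Mfap5, Mfap4, Fbln5, Fbn1, Emilin1, Mfap2 and Fbn2. The ranges of neighbours in that order overlapped except between Mfap5 and Mfap4 and between Mfap2 and Fbn2. In nAAC libraries the order was Mfap5, Mfap4, Fbln2, Eln, Fbln1, Fbn1, Emilin1, Fbln5, Mfap2 and Fbn2, and neighbours did not overlap between Eln and Fbln1, between Fbln5 and Mfap2 and between Mfap2 and Fbn2.

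**Figure D3:**
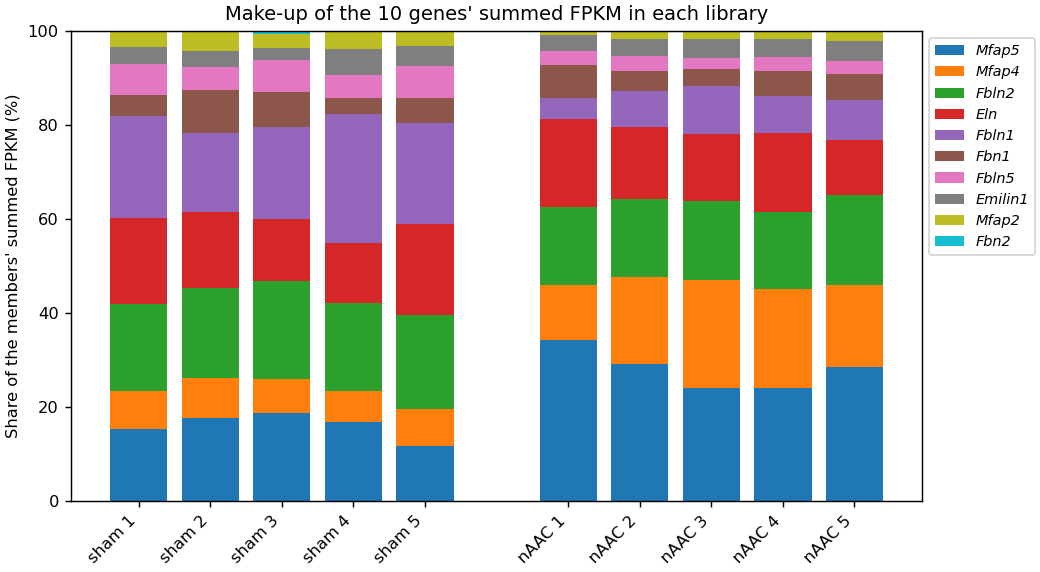
Share of each of the 10 genes in their summed FPKM, in percent, for each library (5 sham, 5 nAAC; each bar is 1 mouse and sums to 100). Mfap5 and Mfap4, at the bottom of each bar, take 28.0% and 18.3% on average in nAAC against 16.0% and 7.68% in sham, and Fbln1 shrinks from 21.5% to 7.75%.

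A plain ratio of 2 genes in the same library does not depend on how libraries were scaled against each other, and the difference of log2(FPKM + 1) depends on it only through the added 1, which weighs most on low genes. On that difference, 8 ratios were compared between groups by a 2-sided exact permutation test of 5 against 5 libraries, whose smallest possible p is 0.0079, with Benjamini-Hochberg adjustment over the 8. The 8 include the ratio of Emilin2 to Emilin1, added after the values were seen, whose small p can only lower the adjusted p of the others. Mfap5 rose against its relative Mfap2 by 2.11 (SE 0.30), Mfap4 rose against Mfap2 by 2.44 (SE 0.17), and Fbln2 rose against Fbln1 by 1.28 (SE 0.23). As plain FPKM ratios, Fbln2 to Fbln1 was 1.62 to 3.72 in nAAC and 0.678 to 1.13 in sham libraries. Fbln5 against Eln decreased by 1.03 (SE 0.17). These 4 ratios did not overlap between groups, and each had an exact permutation p of 0.0079 and an adjusted p of 0.0106. The ratios to Mfap2 could only give that smallest p, so they add no test beyond Mfap5 and Mfap4 themselves. On the log2(FPKM + 1) scale Mfap2 lay between 1.99 and 2.89 in all libraries. Mfap5 was at least 6.14 in nAAC and at most 4.22 in sham libraries, and Mfap4 at least 5.74 and at most 3.47.

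Fbn2 against Fbn1 decreased by 1.51 (SE 0.31), with the same p values, and since Fbn2 stood near 0 in all libraries that ratio follows Fbn1. For Eln against Fbn1 the difference was 0.20 (SE 0.28, exact permutation p = 0.516, adjusted p = 0.590), and the plain ratio was 2.06 to 4.00 in nAAC and 1.79 to 4.08 in sham libraries. For Emilin1 against Eln it was -0.07 (SE 0.24, exact permutation and adjusted p = 0.762), and its sign turned with a pseudocount of 0.1, without nAAC library 1 and without sham library 4. A change in the proportion of elastin to fibrillin or of elastin to Emilin1 was not detectable with this spread.

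**Figure D4:**
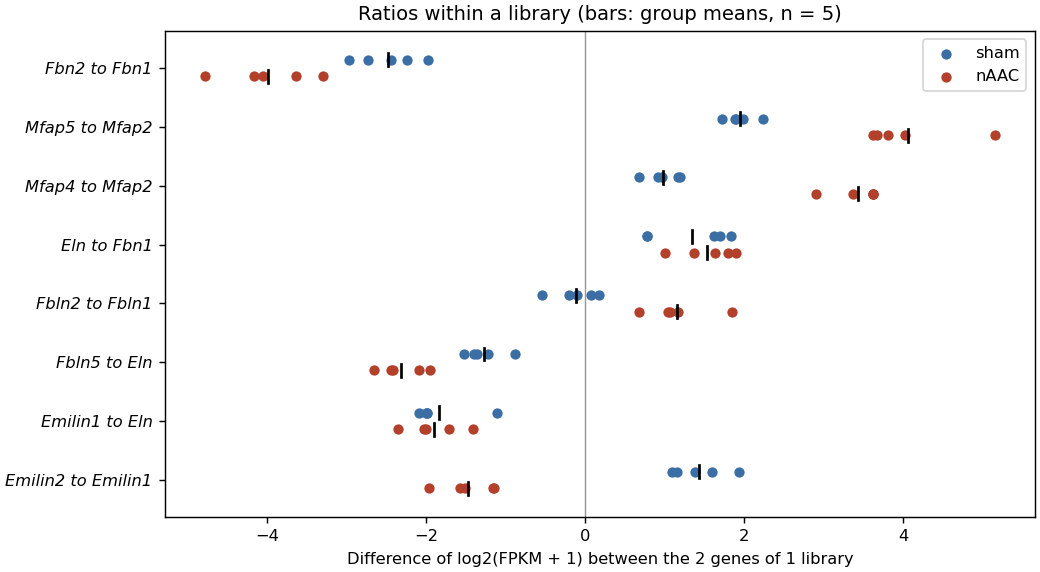
Difference of log2(FPKM + 1) between the 2 genes of each ratio within 1 library; sham points are blue, nAAC points red, and black bars are group means (n = 5). The ratios of Eln to Fbn1 and of Emilin1 to Eln overlap between groups, and the 6 other ratios do not.

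The other genes of elastic fibre assembly were read from a list of 45 genes in 8 roles. Of these 35 passed the filter on low values, 14 were up-regulated DEGs, 1 was down-regulated and 20 were not called. The 33 genes that averaged 1 FPKM or more in both groups held 13 of the up-regulated DEGs. Over all genes tested, 5.01% were up-regulated and 0.893% down-regulated DEGs. At an adjusted p under 0.05 alone 21 of the 35 were higher and 1 was lower, where 27.1% of all genes tested were higher. The median log2 FC of the 35 was 0.64, against 0.22 for all genes tested.

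Lysyl oxidases, which cross-link tropoelastin and collagen, were the role in which all tested genes were called. All 4 tested (Lox, Loxl1, Loxl2 and Loxl3) were up-regulated DEGs, with log2 FC from 1.44 to 1.65, and Loxl1, the family member most tied to elastin, was the highest with 8.07 ± 1.91 FPKM in sham and 27.1 ± 3.65 in nAAC (SD, n = 5 each). Its log2 FC was 1.65 (SE 0.15).

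Latent TGF-beta binding proteins share the repeated domains of fibrillins, and 3 of 4 were up-regulated DEGs. Ltbp4, which also guides elastin assembly, was the most abundant, with 52.9 ± 11.7 FPKM in sham and 161 ± 39.8 in nAAC (log2 FC 1.57, SE 0.20). Ltbp2, which binds Fbn1, was at 0.122 to 0.288 FPKM in sham and at 10.9 to 28.1 FPKM in nAAC libraries, with a log2 FC of 3.72 (SE 0.21, limma adjusted p = 1.31e-07). Its size rests on the added 1 because the sham level was low, and it was 5.66 with a pseudocount of 0.1, while the ratio of group means was 78.2. It passed the filter only through the nAAC group. Ltbp1 was not called, at a log2 FC of -0.40 (SE 0.15, limma adjusted p = 0.0562).

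Of the 5 tested ADAMTS and ADAMTS-like genes, whose products bind fibrillin, 3 were up-regulated DEGs. Adamtsl2 went from 2.83 ± 0.664 to 27.8 ± 6.98 FPKM (log2 FC 2.89, SE 0.17), and Adamtsl5 from 9.95 ± 3.73 to 40.2 ± 6.48 FPKM (log2 FC 1.97, SE 0.21). Their nAAC libraries lay above all sham libraries, and both stayed DEGs under all alternatives that were run.

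Among relatives of the members, direction was not shared. Emilin2, a relative of Emilin1, was the only down-regulated DEG of the list, with 11.9 to 13.2 FPKM in sham and 3.27 to 5.38 FPKM in nAAC libraries and a log2 FC of -1.33 (SE 0.13). The ratio of Emilin2 to Emilin1, added after the values were seen, decreased by 2.90 on the log2 scale (SE 0.22). Each gene of the pair already separated the groups, in opposite directions. The permutation test of this ratio could therefore only give its smallest p. As a plain ratio it was 2.34 to 4.97 in sham and 0.209 to 0.409 in nAAC libraries, so that the more abundant of the pair was Emilin2 in all sham and Emilin1 in all nAAC libraries. Mmrn2, an endothelial multimerin, had a log2 FC of 0.43 (SE 0.15) and was not called. Efemp2, the fibulin that presents lysyl oxidase to elastin, was the 1 of 4 tested fibulin relatives called, at a log2 FC of 1.06 (SE 0.15), just past the fold threshold and below it in 9 of 22 alternatives.

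The enzymes that mature or degrade the fibre gave fewer calls. Furin, which cleaves profibrillin, and Fkbp10, a chaperone of tropoelastin, were not called, at log2 FC of 0.12 and -0.15. Among 5 tested elastin-degrading proteases 1 was called, Mmp2, at 23.6 ± 2.75 FPKM in sham and 56.1 ± 10.5 in nAAC (log2 FC 1.21, SE 0.14), and Ctsl, the most abundant, was not (log2 FC 0.57, SE 0.23, limma adjusted p = 0.0713). Ctsk at a log2 FC of 0.83 (limma adjusted p = 4.44e-04) and Mmp14 at 0.64 (limma adjusted p = 0.00182) passed the adjusted p but not the fold. Of 8 tested receptors for elastin and fibrillin 2 were called, Itgb5 and Itga5, the latter at a log2 FC of 1.21 (SE 0.17). Itgb1, the shared beta chain and the most abundant receptor gene, was not called at 0.39 (SE 0.12). The calls of Mmp2 and Itga5 were lost under median-ratio scaling. Itgb5, at a log2 FC of 1.10 (SE 0.18), was not followed by gene under the alternatives.

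**Figure D5:**
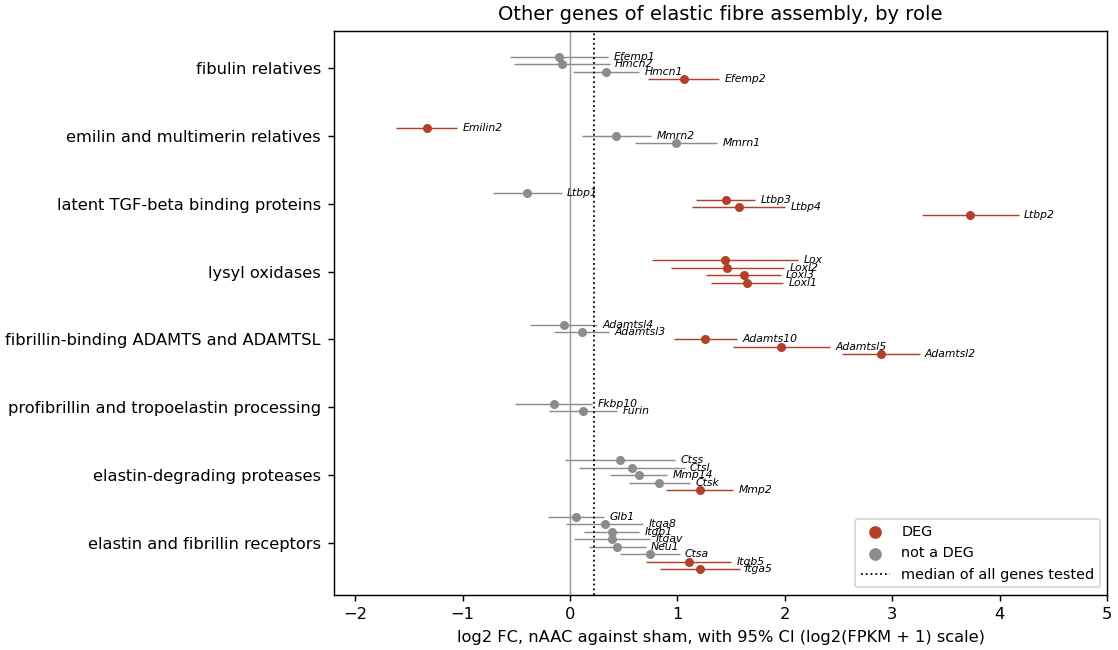
log2 FC of nAAC against sham with 95% confidence intervals for the 35 tested genes of elastic fibre assembly, grouped by role; red points are DEGs, grey points are not, and the dotted line is the median of all genes tested (0.22). All 4 lysyl oxidases are red, and Emilin2 is the only red point left of 0.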

How the data were processed

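Total RNA from LV tissue was extracted with Trizol and made into libraries with an Illumina kit, 1 table per library. Per the file headers, the authors deposited FPKM, TPM and a coverage signal per gene for mm10, and the aligner and quantifier are not given in the sources used here. Deposited FPKM values were used as given, and rows sharing an identifier (7 to 12 per library) were summed. Gene identifiers were found in GENCODE M21 (GRCm38) for 55141 of 55401 genes. Coordinates were compared for the members alone, and they were the same. The number of fragments is unknown, so aligned gigabases were estimated from the deposited coverage and FPKM.

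Values were tested as log2(FPKM + 1) by limma 3.58.1 (R 4.3.3) with an empirical Bayes trend and no covariate, 5 nAAC against 5 sham, for genes averaging 1 FPKM or more. Because of the added 1, fold changes of low genes come out too small. Single ratios were tested by exact permutation with Python 3.11.15. The fit was tested on simulated data. Alternatives were median-ratio, upper-quartile, fibroblast-marker (also with Scara5 left out) and smooth muscle and pericyte marker scaling, deposited TPM, no filter, a pseudocount of 0.1, a replicate block, Xist or Myl7 as a covariate, a GC and length trend removed by loess, other call thresholds and each mouse left out. The members and lists were chosen with earlier results of these data known. Of the list of other genes, those named were, per role, the gene with the largest absolute log2 FC and the most abundant. Others were named after their values were seen.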

Additional observations from a re-analysis of the deposited data

Results flagged for a closer look

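In 58 groups of 5 libraries examined, a lone library stood apart by Dixon's test at its 95% critical value in 3, where chance gives 2.9. The log2 ratio of Mfap5 to Mfap2 was 5.16 in nAAC library 1, and 4.03 in the next nAAC library, a gap of 0.733 of the group's range. The log2 ratio of Emilin1 to Eln was -1.11 in sham library 4, and -1.98 in the next sham library, a gap of 0.898 of the range. The estimated aligned gigabases were 6.82 in nAAC library 1 and 5.26 in the next nAAC library, a gap of 0.796 of the range.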

How the results depend on the processing

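Under 24 alternatives the number of members called was 6, except 7 at an adjusted p under 0.05 alone and 2 with smooth muscle and pericyte marker scaling. DEGs numbered 701 on the deposited scale (595 up, 106 down), 662 to 784 with 1 mouse left out, 1140 with TPM, 1121 with a pseudocount of 0.1, 3757 at an adjusted p alone and 1380 with the smooth muscle and pericyte scaling. Scalings moved the split of up against down calls to 371 and 207 (median-ratio), 377 and 200 (upper-quartile), 319 and 206 (GC and length trend removed), 248 and 362 (fibroblast markers with Scara5 left out) and 124 and 1256 (smooth muscle and pericyte), with medians of all genes of -0.00, 0.01, -0.02, -0.21 and -0.57. Calls in the list of 45 numbered 15 as deposited, 5 with smooth muscle and pericyte scaling and 9 with the GC and length trend removed. The replicate number is shared between groups, and the labels do not say whether it pairs the samples. Correlations of same-numbered libraries, as deviations from group means, ran from -0.32 to 0.19, which cannot settle it. The replicate block gave 704 DEGs (598 up, 106 down) and 6 members. Signs turned for Fbln1 at -0.034 (median-ratio), -0.021 (upper-quartile), -0.55 (smooth muscle and pericyte) and -0.14 (GC and length), and for Furin at -0.14, -0.13, -0.67 and -0.28 in the same order and -0.058 with Xist as a covariate. Smooth muscle and pericyte scaling takes 0.79 off every gene, so that a sign turned by it only says that the gene stood below 0.79. It placed Fbln5 at -0.19, Mfap2 at -0.41, Mmrn2 at -0.36, Ctsl at -0.22 and Itgb1 at -0.40, and the fibroblast scaling with Scara5 left out takes off 0.43, which placed Fbln1 at -0.20, Mfap2 at -0.051, Mmrn2 at -0.00081, Furin at -0.31 and Itgb1 at -0.046. Signs also turned with the GC and length trend removed for Mfap2 at -0.00025, and with TPM for Fkbp10 at 0.0057. The ratio of Emilin1 to Eln was 0.089 with a pseudocount of 0.1 and -0.19 to 0.11 with 1 mouse left out. The calls of Mmp2, Itga5 and Efemp2 were lost with median-ratio, upper-quartile and smooth muscle and pericyte scaling and with the GC and length trend removed, and with fibroblast scaling with Scara5 left out. The marker scalings only take a constant off every gene, and the causes were not tested. A fragment count is unknown, so no counting error could be given, and Fbn2 stood too low to read.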
